A study of Mus musculus with 14 samples.

Results

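Thyroid hormone receptors (Thra, Thrb), the deiodinases (Dio1, Dio2, Dio3) and 3 genes known for their response to the hormone (Hr, Thrsp, Klf9) were followed in mouse testis. They were found by taking every non-control probe whose deposited gene name equals 1 of these 8 symbols, which gave 13 probes of the 41174 that are not controls (27670 gene names). Thrb has 4 probes, Thra and Klf9 have 2 each, and the other 5 genes have 1 each. RNA of whole testis from C57BL/6 mice was measured on single-colour Agilent arrays. The 4 groups are WT at 1 week (4 samples), Glis3KO2 at 1 week (4 samples), WT at 4 weeks (3 samples) and Glis3KO2 at 4 weeks (3 samples). Glis3KO2 names mice with a disrupted Glis3, the gene of a zinc finger transcription factor, and the labels give no treatment, no Cre and no other allele. For the older mice the age used here is the 4 weeks of their own labels, although the design text speaks of 3 weeks. Nothing in the labels says that the samples came from separate animals, so p-values measure only the spread between these samples.

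Thyroid hormone enters cells through membrane transporters, and the deiodinases then set how much active hormone, T3, is present. Dio1 and Dio2 can make T3 from the prohormone T4, whereas Dio3 inactivates both hormones. T3 binds the nuclear receptors TRalpha (Thra) and TRbeta (Thrb), which sit on DNA with RXR partners and exchange corepressors for coactivators. In the postnatal testis T3 is known to limit the proliferation of Sertoli cells, mainly through TRalpha, and Dio3 is known as the main deiodinase of the newborn testis. Loss of Glis3 is known to impair hormone synthesis in the thyroid gland. Hormone levels were not analysed here.

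The probes are 60-base DNA strands, and the stretch of transcript each one reads decides what its signal can report. The probes that carry the results are given by gene, whole where the stretch was taken as coding and otherwise as the first 30 bases, with positions on mouse build mm7 as deposited. Which splice forms each Thra or Thrb probe reads was not assigned, and no exon or UTR annotation of this build was used here.
Thra A_52_P666930 (chr11:98873367-98873426, plus strand): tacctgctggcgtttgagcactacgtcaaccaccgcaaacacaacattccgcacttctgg
Thra A_51_P475995 (chr11:98874081-98874140, plus strand): aaatggtagtcatcctaactgcactttgga
Thrb A_51_P388835 (chr14:15848134-15848193, plus strand): ggtgtcattgcattccacctgtagcattct
Thrb A_52_P532559 (chr14:15850713-15850772, plus strand): aaatcattctcttctaatcttgtccagact
Thrb A_52_P877015 (chr14:15851345-15851404, plus strand): gtcttacggtttttgagatgtagccagtgt
Dio2 A_51_P208603 (chr12:88205395-88205454, minus strand): aatgataactactgacgaaagagctgtctg
Dio3 A_52_P648524 (chr12:107799167-107799226, plus strand): ggatgcgagaactttttggagaagggatta
Thrsp A_51_P194099 (chr7:93448487-93448546, minus strand): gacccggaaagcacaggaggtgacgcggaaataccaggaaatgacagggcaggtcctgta
Klf9 A_52_P675996 (chr19:22862974-22863033, plus strand): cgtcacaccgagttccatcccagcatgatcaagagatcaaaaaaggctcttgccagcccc
Klf9 A_51_P412200 (chr19:22863775-22863834, plus strand): taagtccggaactttcaaaccttgcttcgt
The Thra probes lie 654 bases apart and the Klf9 probes 741. Along Thrb, 2519 bases separate A_51_P388835 from A_52_P532559 and 572 bases separate A_52_P532559 from A_52_P877015. The fourth Thrb probe, A_52_P265108, lies 51596 bases before A_51_P388835.

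A level is a log2 signal minus the 75th percentile of its array, so 0 is that percentile and 1 unit is a doubling. Levels of different probes are not compared. Spots well above background made up 82.6% to 86.6% of an array for replicates 1, 2 and 3 of 1-week WT, and 74.3% to 78.6% for the remaining 11 arrays (control spots aside). The number of arrays limits the precision. Glis3 read -4.87 ± 0.18 (SD, n = 4) in 1-week WT and -8.04 ± 0.84 (n = 4) in 1-week Glis3KO2, where it was not well above background on any array, so it was at least 4.25-fold lower. Limma gave adjusted p = 0.00535 for the fitted difference, in a test that the probe entered through WT alone. At 4 weeks the Glis3 probe was not well above background on any array of either genotype and does not check those labels, and its place relative to the disrupted stretch is not given in the sources used here. The 1-week arrays lie on slides 1 to 3 and the 4-week arrays on slides 4 and 5, and 1-week Glis3KO2 replicate 4 is alone on slide 3. Scan days, numbered in this order, were day 2 for that array, day 1 for the other 1-week arrays and day 3 for all 4-week arrays. Slide and scan day therefore cannot be told apart from age. Several arrays stand apart. At 4 weeks, Glis3KO2 replicate 3 correlated with the WT arrays at 0.933 to 0.945 over the tested probes, against 0.858 to 0.878 for the other Glis3KO2 arrays. At 1 week, WT replicate 4 correlated with a Glis3KO2 array at 0.986, above its highest correlation with its own group (0.982). All 14 Sertoli, all 8 Leydig and all 6 measured spermatogonial markers were well above background on every array of every group. In bulk RNA, fewer cells of a type and less RNA per cell cannot be told apart.

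At 4 weeks, both Thra probes and 2 Thrb probes rose in Glis3KO2 testis, with Dio3 and 1 Klf9 probe, while Dio2 and Hr fell. Thrb A_51_P388835, a dim probe, did not rise (-0.004), so Thrb RNA as a whole cannot be called higher. Of the 12 probes tested, 6 rose and 2 fell. The 6 include Thrb A_52_P877015, which was not well above background on any 4-week WT array and was tested through Glis3KO2 alone. Among all probes tested at this age 35.6% rose and 33.8% fell (69.4% in all), so a change as such is common here. The median difference was 0.69 over the 12 probes and 0.05 over all probes tested. Thra, Thrb and Klf9 count more than once among these probes, here and in the other comparisons. With 1 probe per gene, 3 of 8 genes rose and 2 fell, where 34.6% of all genes rose and 35.0% fell. At 1 week, 2 of 12 probes rose (Thra A_52_P666930 and Thrsp) and 1 fell (Dio3), where 3.24% of all probes rose and 6.76% fell (10.0% in all). The 1-week median was -0.24 over the 12 probes and -0.12 over all probes. These calls use limma with Benjamini-Hochberg adjustment over all probes tested and a threshold of 0.05. The split of all 1-week calls depends on the scaling of the arrays: 32.4% of called probes were higher with the 75th percentile, 70.8% with the median (which moves the median of all probes up by 0.26), 50.7% with quantile normalization (up by 0.13) and 44.7% with another background correction, normexp (up by 0.17). The 13th probe, Thrb A_52_P265108, was well above background on 2 arrays, both 1-week WT, and was not tested.

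**Figure D1:**
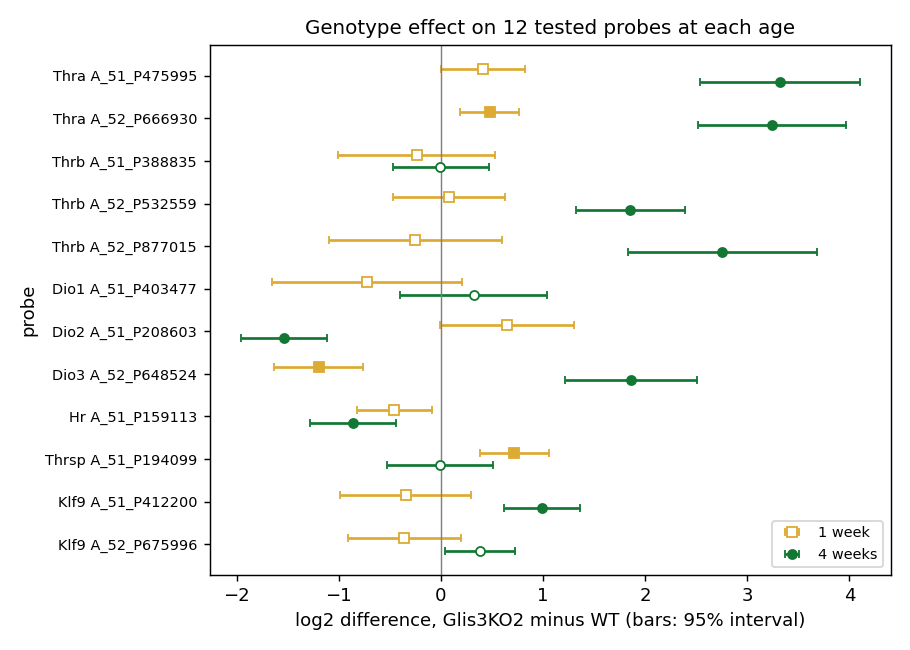
Difference between Glis3KO2 and WT (log2, horizontal axis) for the 12 tested probes at 1 week (squares) and 4 weeks (circles), with 95% intervals from limma; filled symbols passed the threshold and open symbols did not. Thra moved by 0.41 and 0.48 at 1 week and by 3.32 and 3.24 at 4 weeks, and Dio3 lies on opposite sides of 0 at the 2 ages.

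Thra encodes TRalpha, the receptor best known from Sertoli cells. With probe A_51_P475995 its level was 3.51, 3.98, 3.89 and 3.99 in 1-week WT and 4.37, 4.20, 3.89 and 4.55 in 1-week Glis3KO2. In 4-week WT it was 0.44, 0.31 and 0.32, and in 4-week Glis3KO2 it was 4.36, 3.66 and 3.00. The 3 older WT arrays were thus the lowest of all 14, and every 4-week Glis3KO2 array lay above them by more than the spread within either group. The 4-week genotype difference was 3.32 (SE 0.33), or 9.97-fold, with adjusted p = 0.000556 from limma. An exact two-sided permutation test gave p = 0.1, the smallest that 3 against 3 arrays allow. The difference was 3.63 on slide 4, with 2 arrays of each genotype, and 2.69 on slide 5, with 1 Glis3KO2 array (replicate 3) and 1 WT array. Slide 5 values thus rest on a single pair of arrays, here and for the other members. Glis3KO2 replicate 3, the array most like WT, was also the lowest of its group, and without it the difference was 3.65 (adjusted p = 6.46e-05).

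The second Thra probe, A_52_P666930, gave the same picture. Its levels were 2.19, 2.44, 2.31 and 2.38 in 1-week WT, 2.79, 2.69, 2.70 and 3.07 in 1-week Glis3KO2, -2.08, -2.18 and -2.18 in 4-week WT, and 1.72, 1.10 and 0.48 in 4-week Glis3KO2. No pair of the 4 groups overlapped. The 4-week difference was 3.24 (SE 0.30, 9.47-fold, adjusted p = 0.000531 from limma), and over the 14 arrays the probes followed each other with r = 0.974, a description in which all points share the same arrays and groups. At 1 week the difference was 0.48 (SE 0.13), 1.40-fold, with adjusted p = 0.0494 from limma and an exact permutation p = 0.0286, the smallest that 4 against 4 arrays allow. That call was lost when any 1 of the 8 arrays was left out (adjusted p = 0.0502 to 0.131) and with slide as a block (0.41, adjusted p = 0.149). In that block fit Glis3KO2 replicate 4, alone on its slide, adds nothing to the genotype difference. Within slides the 1-week difference was 0.50 on slide 1 (2 arrays of each genotype) and 0.28 on slide 2 (1 Glis3KO2 array and 2 WT arrays). The other probe's 1-week difference, 0.41 (95% interval 0.00 to 0.82), did not pass the threshold (adjusted p = 0.137), and its groups overlapped.

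From 1 to 4 weeks Thra changed in WT testis by -3.49 (SE 0.14) with A_51_P475995 and by -4.47 (SE 0.09) with A_52_P666930, which are falls of 11.2-fold and 22.2-fold. In this WT comparison 5 of the 12 member probes rose and 5 fell, where 29.9% and 51.7% of all probes did (81.7% in all). In Glis3KO2 the change was -1.71 (SE 0.29, adjusted p = 0.0014) with A_52_P666930, whereas A_51_P475995 differed by -0.58 (95% interval -1.31 to 0.15), which did not pass the threshold. Without 4-week Glis3KO2 replicate 1 that change was -0.92 and called (adjusted p = 0.033), and without replicate 3 it was -0.25 (adjusted p = 0.499). The change of the genotype effect between the ages was 2.91 (SE 0.37) and 2.76 (SE 0.32) with the 2 probes, with adjusted p = 9.78e-05 and 5.64e-05 from 1 limma fit of all 14 arrays. Ages lie on different slides, so the comparisons of age were also fitted with slide as a random block, which allows for likeness of arrays on a slide. Both WT falls were called there as well. As each slide holds 1 age only, this fit cannot tell a shift shared by all slides of an age from age itself.

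Thrb encodes TRbeta, the second receptor. Its probe A_52_P532559 read -2.85, -2.66, -2.54 and -2.78 in 1-week WT and -2.44, -2.36, -3.38 and -2.33 in 1-week Glis3KO2. At 4 weeks it read -4.16, -4.60 and -4.46 in WT and -2.28, -2.43 and -2.95 in Glis3KO2. Only the 4-week WT arrays fell below -4, and the other 3 groups overlapped each other. The 4-week difference was 1.85 (SE 0.23), 3.61-fold, with adjusted p = 0.000803 from limma; it was 1.95 on slide 4 and 1.65 on slide 5, and 2.05 without Glis3KO2 replicate 3. WT fell by 1.70 (SE 0.13) from 1 to 4 weeks, while Glis3KO2 differed by 0.07 (95% interval -0.63 to 0.77). The genotype effect changed between the ages by 1.77 (SE 0.36, adjusted p = 0.00134).

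Probe A_52_P877015, which lies further along the same strand, was not well above background on any 4-week WT array (-8.31, -8.61 and -7.10). It was well above background on every array of the other groups, at -4.83, -4.83, -4.15 and -5.78 in 1-week WT, -5.03, -4.92, -5.90 and -4.75 in 1-week Glis3KO2, and -5.08, -5.16 and -5.52 in 4-week Glis3KO2. Its level in 4-week Glis3KO2 was therefore at least 2.59-fold that of 4-week WT, and its level in 1-week WT was at least 3.32-fold that of 4-week WT. The adjusted p-values from limma, 0.00118 and 0.000612, belong to the fitted differences, which use the 4-week WT signals near background. The probe entered both tests only through the brighter group, so these calls are not separate support for the differences. These bounds compare the mean of the brighter group with a floor, or with the probe's own signal where that is higher. The floor is the lowest level of any probe well above background on that array. The bounds allow for no spread between arrays and hold for the 75th percentile scaling of the deposited signal. With normexp, which compresses dim signals, both comparisons were called but smaller, at 0.84 for the genotypes (adjusted p = 0.0163) and -0.84 for WT age. The change of the genotype effect was called (adjusted p = 0.00113), but with normexp it was 0.79 (adjusted p = 0.0637). This probe and A_52_P532559 followed each other over the 14 arrays with r = 0.921, a value that includes the 4-week WT signals near background.

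The third tested Thrb probe did not follow these. A_51_P388835 averaged -5.90 ± 0.69 (SD, n = 4) in 1-week WT, -6.14 ± 0.31 (n = 4) in 1-week Glis3KO2, -5.39 ± 0.24 (n = 3) in 4-week WT and -5.39 ± 0.24 (n = 3) in 4-week Glis3KO2. This probe was dim: it was well above background on 3 of 4 arrays of each 1-week group, though on all 3 of each 4-week group. Its 4-week genotype difference was -0.00 (95% interval -0.47 to 0.47), an interval that does not reach the differences of the other Thrb probes. A signal this close to background can hide a change. Over the arrays it correlated with A_52_P532559 at -0.255 and with A_52_P877015 at -0.237. Only in Glis3KO2 did its change with age pass the threshold (0.74, SE 0.23, adjusted p = 0.026), and that call was lost in 8 of 16 alternatives, 3 of them without 1-week replicate 4 or 4-week replicate 1 or 2 (adjusted p = 0.0591, 0.083 and 0.0854). The tested probes thus differ on Thrb, with this one read near background, and those that changed are the ones that lie furthest along the plus strand of the 4. A_51_P388835 and A_52_P265108 were deposited with the same transcript record, and A_52_P532559 and A_52_P877015 each with another.

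**Figure D2:**
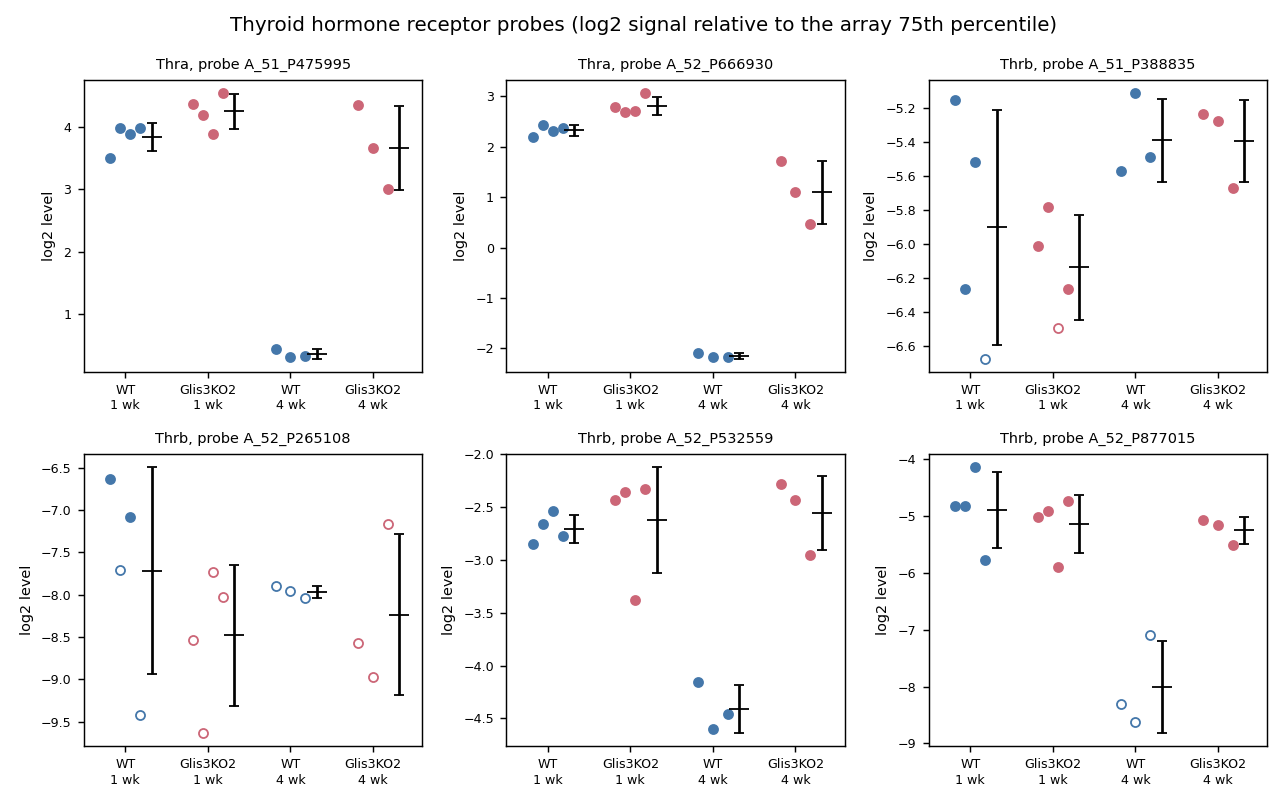
Level of each Thra and Thrb probe on every array (log2 relative to the 75th percentile of the array, vertical axis) by group; filled points were well above background, open points were not, and the bars beside them give the mean and SD. The 3 arrays of 4-week WT lie below all other groups in both Thra probes and in Thrb A_52_P532559 and A_52_P877015, but not in the dim A_51_P388835 or in A_52_P265108, which is close to background in every group.

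Dio3, the inactivating deiodinase, is encoded in an imprinted region and is the deiodinase with the clearest pattern here. It read -1.82, -2.02, -1.94 and -1.22 in 1-week WT and -2.99, -3.01, -3.04 and -2.75 in 1-week Glis3KO2. At 4 weeks it read -3.86, -4.30 and -4.34 in WT and -1.83, -2.29 and -2.78 in Glis3KO2. Every 1-week Glis3KO2 array lay below every 1-week WT array, and the order was the opposite at 4 weeks. At 1 week Dio3 differed by -1.20 (SE 0.19), a fall of 2.29-fold, with adjusted p = 0.0152 from limma and an exact permutation p = 0.0286, the smallest that these groups allow. It was -1.13 on slide 1 and -1.39 on slide 2, and with slide as a block it was -1.24 (adjusted p = 0.0495). Without WT replicate 4, the brightest of its group, it was -1.02 (adjusted p = 0.00586). The call was kept in all 18 alternatives, where the difference ranged from -1.29 to -0.90.

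At 4 weeks Dio3 was higher in Glis3KO2 by 1.87 (SE 0.27), 3.65-fold, with adjusted p = 0.00128 from limma, by 2.04 on slide 4 and by 1.51 on slide 5. The change of the genotype effect between the ages was 3.06 (SE 0.34, adjusted p = 4.54e-05), and it was called in all 23 alternatives. In WT, Dio3 fell by 2.42 (SE 0.23) from 1 to 4 weeks, or 5.34-fold. In Glis3KO2 the change with age was 0.65 (95% interval 0.09 to 1.21), which missed the threshold (adjusted p = 0.0555) but passed it in 2 of 17 alternatives, one of them without 4-week Glis3KO2 replicate 3 (0.89, adjusted p = 0.0122). The antisense gene Dio3as has a probe of its own on the array. It did not differ detectably at 1 week (-0.03, SE 0.41, adjusted p = 0.957 from limma) and was higher in 4-week Glis3KO2 by 1.38 (SE 0.34, adjusted p = 0.0091).

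Dio2, which makes T3 inside cells, went the other way at 4 weeks. It read -4.30, -3.59, -3.09 and -3.72 in 1-week WT, -2.85, -3.30, -3.40 and -2.56 in 1-week Glis3KO2, -2.11, -2.11 and -2.21 in 4-week WT, and -3.65, -3.97 and -3.42 in 4-week Glis3KO2. The 4-week WT arrays were the highest of all 14, and the 4-week Glis3KO2 arrays lay within the range of 1-week WT. Its 4-week difference was -1.54 (SE 0.18), a fall of 2.90-fold, with adjusted p = 0.000729 from limma, and it was -1.65 on slide 4 and -1.30 on slide 5. WT rose with age by 1.53 (SE 0.26), and Glis3KO2 differed by -0.65 (95% interval -1.24 to -0.06, adjusted p = 0.065), a change called in 4 of 17 alternatives, among them median scaling (-0.86) and leaving out 1-week Glis3KO2 replicate 3 (-0.77, adjusted p = 0.0359). At 1 week the difference of 0.65 (95% interval -0.01 to 1.30) did not pass the threshold. The change of the genotype effect was -2.18 (SE 0.38, adjusted p = 0.00056).

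Dio1, the deiodinase best known from liver and kidney, was dim but well above background on all arrays. It averaged -4.89 ± 0.77 (SD, n = 4) in 1-week WT, -5.61 ± 0.52 (n = 4) in 1-week Glis3KO2, -5.18 ± 0.34 (n = 3) in 4-week WT and -4.86 ± 0.52 (n = 3) in 4-week Glis3KO2. All pairs of groups that were compared overlapped, and no comparison passed the threshold. The 1-week difference was -0.72 (95% interval -1.65 to 0.21) and the 4-week difference 0.32 (95% interval -0.40 to 1.04). Without 1-week WT replicate 4, which had the lowest Dio1 level of its group (-5.99), the 1-week difference was -1.09 (adjusted p = 0.0471) the WT age difference -0.66 (adjusted p = 0.0282), and the change of the genotype effect 1.41 (adjusted p = 0.021, against 1.04 and 0.146 with all arrays). Without 1-week Glis3KO2 replicate 3 the Glis3KO2 age difference was 0.99 (adjusted p = 0.0228), against 0.75 (adjusted p = 0.0977) with all arrays.

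**Figure D3:**
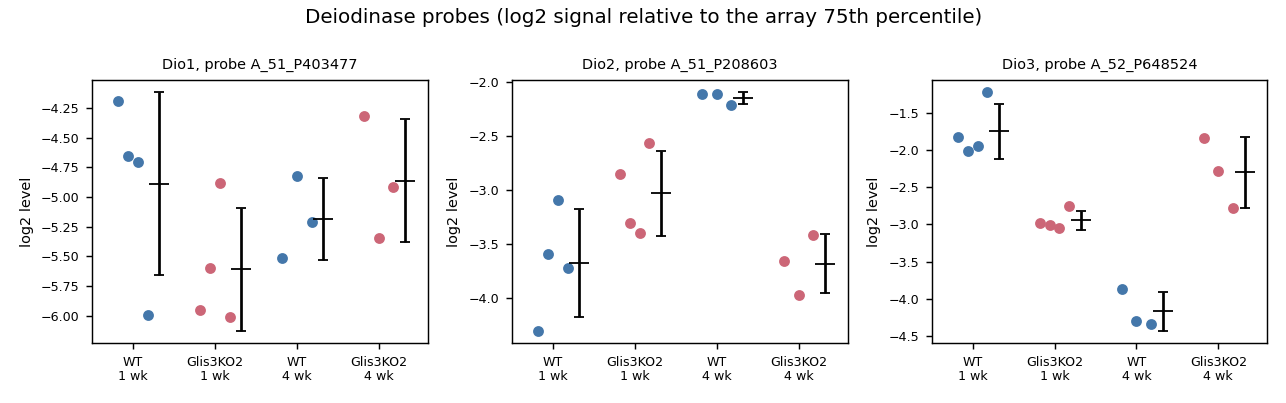
Level of the Dio1, Dio2 and Dio3 probes on every array (log2 relative to the 75th percentile of the array, vertical axis) by group, with the mean and SD beside the points. Dio2 is highest and Dio3 lowest in 4-week WT, and Dio3 separates the genotypes without overlap at both ages in opposite directions.

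Klf9, a zinc finger factor whose transcription T3 is known to raise, was higher at 4 weeks than at 1 week in both genotypes. Probe A_51_P412200 read -1.28, -1.41, -1.23 and -1.07 in 1-week WT, -1.03, -1.12, -2.29 and -1.92 in 1-week Glis3KO2, -0.30, -0.38 and -0.41 in 4-week WT, and 0.83, 0.60 and 0.46 in 4-week Glis3KO2. The 1-week groups overlapped, and the 4-week groups did not. The 4-week difference was 0.99 (SE 0.16), 1.99-fold, with adjusted p = 0.00156 from limma, and 1.07 and 0.84 within slides 4 and 5. Klf9 rose with age by 0.88 (SE 0.10) in WT and by 2.22 (SE 0.33) in Glis3KO2, and the change of the genotype effect was 1.33 (SE 0.37, adjusted p = 0.00893).

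The other Klf9 probe, A_52_P675996, rose with age by 1.48 (SE 0.09) in WT and by 2.22 (SE 0.29) in Glis3KO2. Its 4-week genotype difference was smaller, 0.38 (95% interval 0.04 to 0.73), and just missed the threshold (adjusted p = 0.0508), although the groups did not overlap. It passed in 3 of 16 alternatives, one of them without Glis3KO2 replicate 3 (0.43, adjusted p = 0.023). Its change of the genotype effect, 0.74 (SE 0.32, adjusted p = 0.0653), passed in 4 of 23 alternatives, among them without 1-week Glis3KO2 replicate 1 (0.84, adjusted p = 0.0464) or 2 (0.93, adjusted p = 0.0138). The Klf9 probes followed each other over the 14 arrays with r = 0.958 and agree in direction at each comparison.

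Hr encodes the hairless corepressor, known as a direct target of the hormone in brain. It read -4.47, -4.82, -4.53 and -4.51 in 1-week WT, -4.96, -4.71, -5.28 and -5.21 in 1-week Glis3KO2, -3.66, -3.29 and -3.46 in 4-week WT, and -4.19, -4.24 and -4.56 in 4-week Glis3KO2. The 4-week WT arrays were the highest. Its 4-week difference was -0.86 (SE 0.18), a fall of 1.82-fold, with adjusted p = 0.0042 from limma, -0.66 on slide 4 and -1.27 on slide 5, but -0.43 and not called with normexp (adjusted p = 0.119). Hr rose with age in WT by 1.11 (SE 0.13). In Glis3KO2 it differed by 0.70 (SE 0.22, adjusted p = 0.0239), a call lost in 7 of 17 alternatives, among them median scaling (adjusted p = 0.0783), quantile normalization (0.104), normexp (0.288) and leaving out 1-week replicate 4 (0.0575) or 4-week replicate 1 (0.0774) or 2 (0.0777). At 1 week the genotype difference of -0.46 (95% interval -0.82 to -0.09) did not pass the threshold (adjusted p = 0.0868). The change of the genotype effect was -0.41 (SE 0.24, adjusted p = 0.178), but it was called with median scaling (-0.74, adjusted p = 0.0226) and with quantile normalization (-0.89, adjusted p = 0.0109).

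Thrsp, also called Spot 14, is a hormone-induced gene of fat synthesis in liver and adipose tissue. It read -3.74, -3.72, -3.65 and -3.63 in 1-week WT and -2.99, -3.17, -2.58 and -3.13 in 1-week Glis3KO2, so that every Glis3KO2 array lay above every WT array. At 4 weeks it read -2.49, -2.74 and -2.67 in WT and -3.06, -2.32 and -2.54 in Glis3KO2, with overlap. The 1-week difference was 0.72 (SE 0.15), 1.64-fold, with adjusted p = 0.0323 from limma and an exact permutation p = 0.0286. It was 0.91 on slide 1 and 0.50 on slide 2, and with slide as a block it was 0.75 and not called (adjusted p = 0.0904). Leaving out Glis3KO2 replicate 1, or WT replicate 1, 2 or 3, also ended the call (adjusted p = 0.06, 0.0913, 0.0728 and 0.0786). Thrsp rose with age in WT by 1.05 (SE 0.09). The change of the genotype effect, -0.72 (SE 0.26, adjusted p = 0.0348), was lost in 8 of 23 alternatives, 6 of them the loss of 1-week WT replicate 1 or 2, 1-week Glis3KO2 replicate 3, 4-week WT replicate 1 or 3 or 4-week Glis3KO2 replicate 1 (adjusted p = 0.0506 to 0.0912). Since Thrsp is strong in fat, the adipose markers stand beside it: 2 of the 6 tested rose at 1 week (Fabp4 by 1.72 and Plin1 by 0.79), where 3.94% of all genes rose. The other 4 were not called, at 0.86 for Lpl, -0.68 for Adipoq, -0.42 for Cidec and -0.10 for Retn. The summed level of the list was 3.04 to 3.59 in Glis3KO2 and 2.09 to 2.74 in WT, and Lep was not well above background on any array of any group. Their part in the Thrsp result was not tested.

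**Figure D4:**
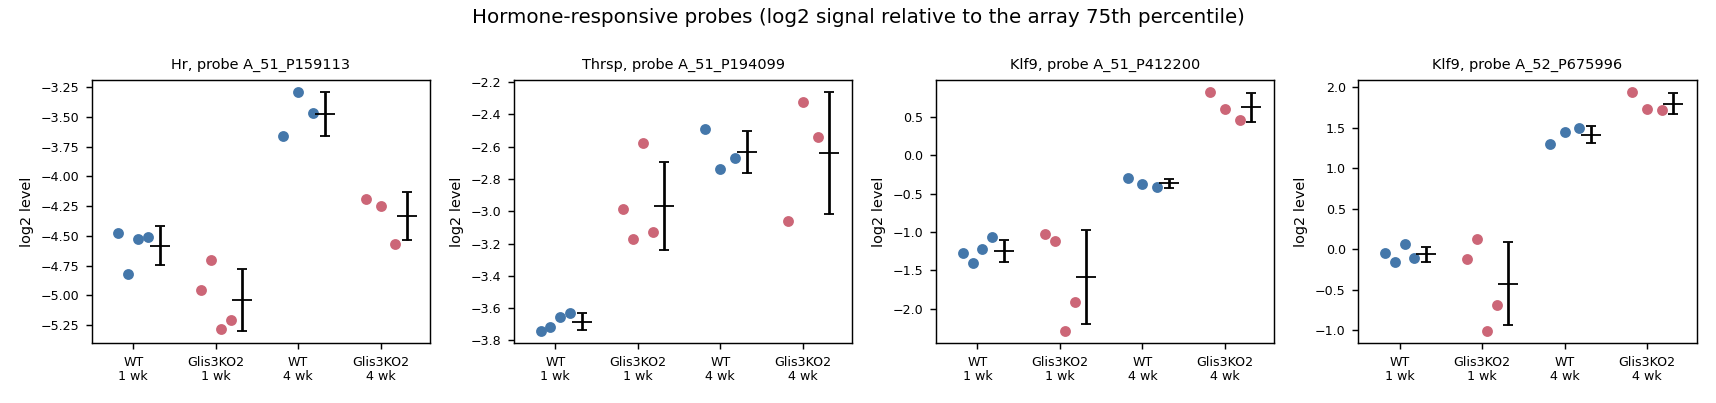
Level of the Hr, Thrsp and Klf9 probes on every array (log2 relative to the 75th percentile of the array, vertical axis) by group, with the mean and SD beside the points. Thrsp separates the genotypes at 1 week and not at 4 weeks, whereas Hr is lower and Klf9 A_51_P412200 higher in 4-week Glis3KO2 without overlap.

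In Glis3KO2, 4 of the 12 member probes rose with age (both Klf9 probes, Hr and Thrb A_51_P388835) and 1 fell (Thra A_52_P666930), where 21.8% of all probes rose and 28.7% fell (50.6% in all). Of the changes of the genotype effect between the ages, 6 of 12 were called higher at 4 weeks (both Thra probes, 2 Thrb probes, Dio3 and Klf9 A_51_P412200) and 2 lower (Dio2 and Thrsp), where 31.2% and 20.8% of all probes were (51.9% in all). The share of called probes that was higher in this comparison was 60.0%, against 44.5% with median scaling, which moves the median of all probes down by 0.34. With median scaling, 6 member probes were higher and 3 lower. The comparisons of age and of genotype share arrays, and each gives its own values.

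The markers of the testis cell types moved with these groups, and their part in the members' differences was not tested. In 4-week Glis3KO2, 12 of 14 Sertoli markers rose and none fell, with a median difference of 1.98, and their summed level was 8.92 to 9.29 against 7.53 to 7.62 in WT. Peritubular markers were called higher in 4 of 5 cases (5.26 to 6.24 against 4.51 to 4.68) and endothelial markers in 3 of 5 (0.46 to 0.98 against -0.45 to 0.04). Of 7 macrophage markers 5 rose and 1 fell (4.54 to 5.05 against 3.58 to 3.96). All 8 spermatid markers fell (5.88 to 7.30 against 9.16 to 9.72), as did all 8 spermatocyte markers (7.06 to 7.93 against 8.43 to 8.57). Of the 8 Leydig markers 4 fell and 1 rose (3.35 to 5.02 against 5.06 to 5.41). In WT from 1 to 4 weeks, where 31.6% of all genes rose and 49.3% fell (80.9% in all), 12 of 14 Sertoli markers fell and 2 rose, and all 8 spermatid and all 8 spermatocyte markers rose. At 1 week, beside the fall of Dio3, 5 of 6 spermatogonial markers fell in Glis3KO2 (3.16 to 5.02 against 4.69 to 5.62), and 7 of 14 Sertoli markers rose (8.98 to 9.51 against 8.50 to 8.64), counts of 2 to 5 and of 0 to 6 when 1 array was left out. Leydig markers rose in 3 of 8 cases (0 to 3) and macrophage markers in 5 of 7 (2 to 6). Of 4 epididymal markers tested at 1 week, 1 rose and none fell (summed level 0.37 to 2.16 in Glis3KO2 against -0.26 to 0.05 in WT). At 4 weeks 1 of 6 rose and 2 fell (-1.03 to -0.10 against -0.11 to 1.90). Of 3 blood markers none was called between the genotypes at either age.

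**Figure D5:**
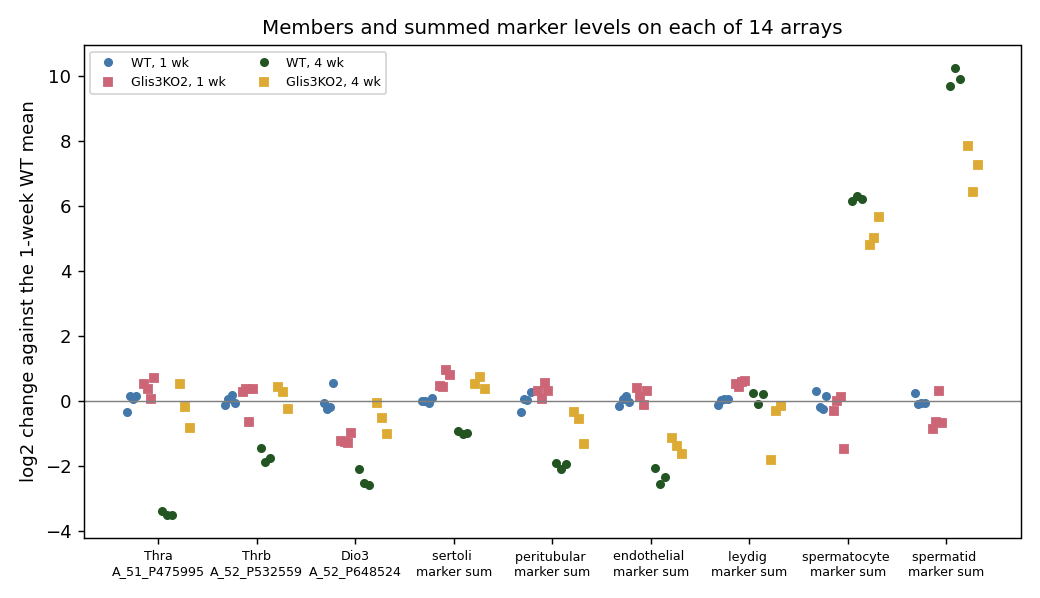
Level of 1 probe each of Thra, Thrb and Dio3 and summed level of marker lists on each of the 14 arrays, as log2 change against the mean of 1-week WT (vertical axis); circles are WT and squares Glis3KO2. Thra A_51_P475995, Thrb A_52_P532559, Dio3 and the Sertoli, peritubular and endothelial sums are lowest in 4-week WT, where the spermatocyte and spermatid sums are highest.

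The other genes of the pathway were followed through lists, with the brightest tested probe standing for a gene. Among all genes tested at 4 weeks 34.6% rose and 35.0% fell (69.6% in all), and at 1 week 3.94% rose and 6.03% fell (9.97% in all). Of 6 transporters tested at 4 weeks, 4 rose and none fell, with a median difference of 0.84 against -0.00 over all genes; without 1 array or with other scalings 3 or 4 rose. Slc7a5 and Slc3a2, which together form the amino acid and hormone carrier LAT1, were higher by 1.60 (SE 0.23) and 1.12 (SE 0.17). At 1 week none of 7 transporters was called with the 75th percentile, and 3 rose with median scaling.

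Receptor partners and coregulators moved both ways at 4 weeks: of 16 tested, 10 rose and 4 fell, with a median of 0.50; 7 to 11 rose and 4 or 5 fell when 1 array was left out, and 7 rose and 5 fell with median scaling. The coactivator Ncoa1 rose by 1.31 (SE 0.16) and Rxra, the receptors' DNA-binding partner, by 1.85 (SE 0.24). Lower were Tbl1xr1, a subunit of the corepressor complex (-2.01, SE 0.30), Trip12, named as a receptor-interacting ubiquitin ligase (4.50 ± 0.24 in Glis3KO2 and 5.49 ± 0.13 in WT, SD, n = 3 each), and the coactivator Ncoa3 (-0.68, SE 0.13). At 1 week 4 of 16 fell and none rose, among them Trip12 (-0.73, SE 0.12), Tbl1x (-0.54, SE 0.12) and Tbl1xr1 (-0.66, SE 0.15), and 0 to 4 fell when 1 array was left out. With median scaling none of these 16 was called at 1 week, and the list's median turned from -0.11 to 0.15.

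Of 25 further hormone-responsive genes tested at 4 weeks, 15 rose and 6 fell (median 0.55), and 9 to 15 rose and 5 or 6 fell when 1 array was left out. Fos, an immediate early factor, was at least 10.6-fold higher in Glis3KO2 by its mean. It was not well above background on any 4-week WT array and was tested through Glis3KO2 alone. Bcl3 rose from -0.63 ± 0.06 to 1.37 ± 0.47 (SD, n = 3 each) and Cpt1a, the carnitine palmitoyltransferase of fat oxidation, by 1.74 (SE 0.19). Gpd2, the mitochondrial glycerophosphate dehydrogenase that T3 is known to induce in liver, fell by 2.75 (SE 0.34), as did Strbp (-1.38, SE 0.17) and Adrb1 (-4.40 ± 0.36 in Glis3KO2 and -2.89 ± 0.02 in WT, SD, n = 3 each). These genes answer to many signals, and the list is described by its counts only. At 1 week 3 of 25 rose, Bcl3 by 0.91 (SE 0.18), Gja1 by 0.74 (SE 0.17) and Slc2a4 by 0.63 (SE 0.16), and Myh6 fell by 0.91 (SE 0.19); without 1 array 0 to 4 rose and 0 to 2 fell.

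Hormone binding and selenoprotein synthesis, on which the deiodinases depend, split at 4 weeks: 3 of 7 genes rose and 3 fell. Crym, a cytosolic T3-binding protein, was higher by 4.68 (SE 0.64), at 0.35 ± 1.41 in Glis3KO2 and -4.33 ± 0.09 in WT (SD, n = 3 each). The sulfotransferase Sult1a1 rose by 1.60 (SE 0.19) and Pstk by 0.49 (SE 0.18). The selenocysteine factors Sephs2, Sepsecs and Eefsec were lower (-1.86, SE 0.40, -1.35, SE 0.25, and -0.97, SE 0.15). At 1 week only Sult1a1 of the 8 tested was called (0.48, SE 0.12, adjusted p = 0.0431 from limma), and without 1 array 0 or 1 rose and 0 or 1 fell.

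Genes of the thyroid gland were included because gland tissue would bring them along. Foxe1 and Nkx2-1, which define thyroid follicular cells, were not well above background on any array of any group. Of 9 tested at 4 weeks 2 rose and 3 fell, and with normexp none rose and 2 fell. By their means, Slc5a8 and Pax8 were at least 1.73-fold and at least 1.76-fold higher in Glis3KO2. They were not well above background on any 4-week WT array and were tested through Glis3KO2 alone. These bounds allow for no spread between arrays, and Pax8 read -5.78 ± 0.72 (SD, n = 3) in 4-week Glis3KO2. Lower were Tg (-1.28, SE 0.38) and Tshr (-2.59, SE 0.60). Tshr was well above background on 1 of 3 Glis3KO2 arrays and was tested through WT alone. The calls of Slc5a8, Pax8 and Tshr are thus not separate support for their differences. At 1 week Duox2 rose by 1.94 (SE 0.45) and Slc26a4 fell by 1.66 (SE 0.35). Slc26a4 was well above background on 1 of 4 Glis3KO2 arrays and was tested through WT alone. Without 1 array, 0 or 1 gene of the list rose and 0 or 1 fell.

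Promoter windows of 250 bases before to 50 after the start site (RefSeq, GRCm38.p6) were at hand for 6 of the 8 members, 7 windows in all, with none for Thra and Hr. They were searched on both strands for the hormone receptor half-site AGGTCA and for its direct repeat with 4 bases of any kind between the copies, whose matches also match the half-site. The half-site is shown in capitals because it is the only match among the members.
Thrb (chr14:17660764-17660793, plus strand, 184 bases before the start site): aggagagttgacAGGTCAagggaatagggc
The half-site is in 5340 of 32851 windows of this length (16.26%) and the direct repeat in 5 (0.02%), none of them a member's. A match is a description of these letters only.

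For the brightest tested probe of each member, the genes with the most similar levels over the 14 arrays were taken among 26335 probes well above background on every array. They were Bcl2 (r = 0.997), Srebf1 (0.996) and Arhgef40 (0.996) for Thra, and Strn (0.994), Tbc1d4 (0.991) and Cdc42bpb (0.986) for Thrb A_52_P532559, which does not stand for the other Thrb probes. For Klf9 they were Btnl10 (0.982), Tmc7 (0.980) and Qsox1 (0.978), and for Dio3 they were Rhebl1 (0.959), Epb41l3 (0.958) and Tsc22d3 (0.951). For Hr they were Gigyf2 (0.973), Arhgap26 (0.964) and Marchf6 (0.962), for Dio2 Mall (0.945) and Dpp8 (0.941), and for Thrsp Trappc6b (0.945), Timm17a (0.937) and Mrap (0.937). For Dio1 the closest named gene was Olfr1417 (0.952), followed by G6pc (0.927) and Anapc11 (0.924). All points share the same 14 arrays and the 4 groups, and the values are a description.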

How the data were processed

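Deposited scanner files of 14 arrays were used, read with Agilent Feature Extraction 9.5 per the submitters' processing notes. Per the file headers they hold spot intensity, already background-subtracted and detrended within the array by the authors; the deposited series table holds the same values at all 45018 spots of each array. Here the deposited intensity was put on the log2 scale, each array's 75th percentile over non-control probes was subtracted, flagged spots were left out and spots of 1 probe were averaged. Of the 41174 probes, 22951 took their current name through an accession, 6659 by symbol, 3109 by synonym, and 8455 kept the deposited name (27670 names).

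Probes that 3 or more arrays of some group measured well above background were fitted with limma 3.58.1 (R 4.3.3; lmFit, eBayes), separately for each comparison, and with all 14 arrays for the change of the genotype effect; a call is a Benjamini-Hochberg adjusted p under 0.05. The procedure was tested on simulated data. Slide was fitted as a fixed block for comparisons of genotype and as a random block between ages. Slide 3 holds a single array, 1-week Glis3KO2 replicate 4, which adds nothing to the genotype difference in the fixed block. Named genes are all members, Glis3, up to 3 called genes per direction and pathway list with the smallest p, and the 3 genes most like each member, of which some are not reported here; Dio3as, the adipose markers, Foxe1 and Nkx2-1 were named after their values were seen. The members and lists were chosen with earlier results of these data known. Alternatives were median scaling, quantile normalization, normexp (offset 50), no filter, a filter on all arrays, 1 probe per gene, a common fit of the 14 arrays, blocks for slide or replicate number, moderation with a trend and robust variances, and dropping single arrays. Figures were drawn with matplotlib 3.10.9. No column of sample values was left unmapped (0).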

Additional observations from a re-analysis of the deposited data

Results flagged for a closer look

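In 2 of 26 sets of 4 arrays, 1 array stood far from the other 3, where chance gives about 1 in 20. Thrb A_52_P532559 read -3.38 in 1-week Glis3KO2 replicate 3, against -2.44 to -2.33 in the others, and the 1-week difference without that array was 0.33 (adjusted p = 0.0807 from limma). Hr read -4.82 in 1-week WT replicate 2, against -4.53 to -4.47 in the others.

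The genotype effect at 4 weeks differed from that at 1 week, by a test of the difference itself in 1 limma fit, for 8 member probes. The differences were 2.91 and 2.76 for Thra, 1.77 for Thrb A_52_P532559, 3.06 for Dio3 and 1.33 for Klf9 A_51_P412200. They were -2.18 for Dio2 and -0.72 for Thrsp. The fitted value for Thrb A_52_P877015 was 3.00, but this probe was not well above background on any 4-week WT array, so the value is not a measured size, and with normexp it was 0.79 and not called (adjusted p = 0.0637). Ages lie on different slides, so the age and the slide of these effects cannot be told apart. The block fits compare genotypes within slides and do not change this.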

How the results depend on the processing

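The count of probes called at 1 week (3369) was 5218 with median scaling, 1497 with no filter, 5823 with 1 fit of all arrays, 681 with slide as a block, 587 with the replicate block, 5516 with trend and robust moderation, and 500 to 5249 without 1 array. With 1 probe per gene, which counts genes, it was 2240 at 1 week, 18977 for WT age (28595 probes) and 12003 for the change of the genotype effect (18250 probes). Without 1 array, calls numbered 18691 to 23864 at 4 weeks, 27180 to 29756 for WT age, 13727 to 16876 for Glis3KO2 age and 15857 to 20202 for the change of the genotype effect. Directions turned only for values called in no setting. For Thrb A_51_P388835 at 1 week the difference was 0.021 with median scaling, 0.26 with quantile normalization and 0.18 with normexp, and -0.494 to 0.014 without 1 array. At 4 weeks it was 0.21 with normexp and -0.094 to 0.134 without 1 array, and its change between ages was -0.11 with median scaling, -0.32 with quantile normalization and -0.019 to 0.489 without 1 array. For Thrb A_52_P877015 at 1 week it was 0.005, 0.12 and 0.045 in the same 3 settings, and for Glis3KO2 age 0.029 with the replicate block and -0.355 to 0.029 without 1 array. For Thrb A_52_P532559 it was -0.015 to 0.333 at 1 week without 1 array, and for Glis3KO2 age -0.14 with median scaling, -0.072 with quantile normalization and -0.182 to 0.268 without 1 array. Thrsp at 4 weeks was 0.066 with normexp and -0.166 to 0.203 without 1 array. The cause was not tested. Replicate numbers do not pair the samples (correlation of same-numbered deviations -0.17, -0.10, -0.02 and 0.14 at 1 week, 0.13, -0.28 and 0.09 at 4 weeks), and the replicate block ended the 1-week calls of Thra A_52_P666930 (adjusted p = 0.108) and Thrsp (0.0764) and the Thrsp change between ages (0.0781). Of the 188 member values at 4 weeks 178 kept direction and call, of 200 for WT age 198, of 211 at 1 week 182, of 200 for Glis3KO2 age 170 and of 272 for the change 253.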
